A study of Homo sapiens with 4 samples.

Results

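Iron storage, uptake, export and iron-regulatory genes were followed in total RNA and in ribosome-protected fragments (RPF, the mRNA pieces covered by ribosomes) of SW480, a long-established line of human colorectal cancer cells. The 10 genes were chosen by symbol, as FTH1, FTL, NCOA4, TFRC, SLC11A2, SLC40A1, IREB2, ACO1, HMOX1 and LCN2, and all 10 were present among the 19192 genes counted. The 4 libraries were RPF and total RNA of cells labelled IMP1-/-, and RPF and total RNA of wild-type cells, with 1 library in each group and 3 pooled culture plates behind each. IGF2BP1 is the gene of IMP1, a protein that binds RNA, and how the IMP1-/- cells were made, or from how many clones, is not given in the labels. For wild-type RNA the labels give the line as SW840 in 1 field, against SW480 in the others, and this was not resolved.

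Every difference compares 1 library with 1 other and has no replicate behind it, and clone, culture and library cannot be told apart from genotype. Totals were 4932388 reads in IMP1-/- labelled RNA and 5551479 in wild-type RNA, and 3778316 in IMP1-/- labelled RPF and 3782874 in wild-type RPF. IGF2BP1 itself had 571 reads in IMP1-/- labelled RNA against 598 in wild-type RNA, and 149 reads in IMP1-/- labelled RPF against 285 in wild-type RPF. Its RNA therefore does not show the deletion, so the genotype is written as a label throughout. Of 10 epithelial markers, EPCAM, KRT8, KRT18, KRT19 and CDH1 were among those detected in all 4 libraries, and KRT20 had 0 reads in each. VIL1 had 2 reads in IMP1-/- labelled RNA against 160 in wild-type RNA, and 0 in IMP1-/- labelled RPF. CDX1 had 0 reads in IMP1-/- labelled RNA and in RPF of either genotype. In IMP1-/- labelled RNA, CDH1 and CLDN7 were higher and KRT8, KRT18, CDX2 and VIL1 lower, each by at least 1.5-fold. Of 11 leukocyte markers, PTPRC, CD163, CD3E and MS4A1 were among those with 0 reads in every library, and CD68 had 221 reads in IMP1-/- labelled RNA against 26 in wild-type RNA, and 198 reads in IMP1-/- labelled RPF against 4 in wild-type RPF. The list summed to 239 reads in IMP1-/- labelled RNA and 48 in wild-type RNA, and to 217 in IMP1-/- labelled RPF and 22 in wild-type RPF, and its part in the results below was not tested. Of 8 erythroid markers the summed reads were 14 in IMP1-/- labelled RNA and 14 in wild-type RNA. Of 8 fibroblast and endothelial markers they were 915 in IMP1-/- labelled RNA and 2038 in wild-type RNA, most of them KDR, and 65 in IMP1-/- labelled RPF and 8 in wild-type RPF.

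Cells store iron inside ferritin, a hollow shell built of heavy (FTH1) and light (FTL) chains, import it through the transferrin receptor (TFRC) and export it through ferroportin (SLC40A1). The iron regulatory proteins, encoded by ACO1 and IREB2, bind a hairpin called the iron-responsive element (IRE) when iron is scarce. Bound near the 5′ end of an mRNA they block initiation of translation, as on ferritin mRNA, and bound in the 3′ untranslated region (UTR) they protect the mRNA from decay, as on TFRC mRNA.

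The hairpins are the feature by which FTH1, FTL and SLC40A1 are set against TFRC, so they were looked up in the counted transcripts (GENCODE release 29, GRCh38). The search took the sense strand for the loop CAGTGN, preceded by an arm of 5 bases and, before that arm, the bulged C. It required the 5 bases on either side of the loop to pair, with G to T pairs allowed. Of 19113 coding transcripts 19 (0.0994%) held this pattern in the 5′ UTR and 89 (0.466%) in the 3′ UTR. Each sequence below reads 5′ to 3′ as DNA, with the bulged C and the loop in capitals.
FTH1, 5′ UTR, chr11:61967573-61967602, minus strand: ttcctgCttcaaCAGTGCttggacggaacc
FTL, 5′ UTR, chr19:48965335-48965364, plus strand: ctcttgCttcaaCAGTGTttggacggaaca
SLC40A1, 5′ UTR, chr2:189580660-189580689, minus strand: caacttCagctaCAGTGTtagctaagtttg
TFRC, 3′ UTR, chr3:196050978-196051007, minus strand: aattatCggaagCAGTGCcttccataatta
TFRC, 3′ UTR, chr3:196050574-196050603, minus strand: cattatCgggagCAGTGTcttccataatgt
TFRC, 3′ UTR, chr3:196050509-196050538, minus strand: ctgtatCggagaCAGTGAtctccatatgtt
TFRC, 3′ UTR, chr3:196050462-196050491, minus strand: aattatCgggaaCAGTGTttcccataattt
SLC11A2, 3′ UTR, chr12:50988268-50988297, minus strand: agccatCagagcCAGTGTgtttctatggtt

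The 2 ferritin hairpins were identical at 26 of 30 bases, and FTH1 shared 13 of 30 with SLC40A1 and between 9 and 11 of 30 with the TFRC sites. The bulged C lay at base 65 of the FTH1 transcript, base 41 of FTL and base 205 of SLC40A1. TFRC carried 4 sites with all 5 pairs, and no other transcript had more than 2 in its 3′ UTR. The SLC11A2 site had 4 of the 5 pairs and is shown because SLC11A2 is known for a 3′ IRE. IREB2 and ACO1 each also had 1 site with 4 pairs in the 3′ UTR, and 640 of the 19113 transcripts (3.35%) had a 3′ UTR site with 4 or more pairs, so a match of this grade is common. NCOA4, HMOX1 and LCN2 had no UTR site with 4 or more pairs. A match of letters is a description and not a measurement of protein binding.

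FTH1, the ferritin heavy chain with the ferroxidase centre, had 4.13-fold more RNA but only 1.20-fold more footprints in the IMP1-/- labelled cells. The gene (ENST00000273550, chromosome 11, 61964285 to 61967660, minus strand) had 58044 reads in IMP1-/- labelled RNA against 15615 in wild-type RNA, and 5103 reads in IMP1-/- labelled RPF against 4252 in wild-type RPF. Libraries of a kind were scaled together, and a change is the log2 ratio of IMP1-/- labelled over wild type with its 95% counting interval. The RNA change was 2.05 (2.02 to 2.07) and the RPF change was 0.26 (0.20 to 0.32). FTH1 was the 7th most abundant gene of IMP1-/- labelled RNA with 1.18% of its reads, and the 17th of wild-type RNA with 0.281%. Its share of footprints was 0.135% in the IMP1-/- labelled library and 0.112% in the wild-type library.

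Subtracting the RNA change from the RPF change gives the change in translational efficiency (TE), which for FTH1 was −1.78 (−1.85 to −1.72), or 3.44-fold lower. That placed FTH1 at percentile 0.964 of the 9598 genes measured in both kinds of library, where a gene needed 50 reads or more summed over the 2 libraries of each kind. Within each genotype, footprint level over RNA level was 0.115 (0.112 to 0.119) in IMP1-/- labelled cells and 0.397 (0.384 to 0.411) in wild-type cells. The median of all genes was 1.10 in IMP1-/- labelled cells and 1.08 in wild-type cells. The scaling of RNA against RPF within a genotype sets this level, so its place among genes is what can be read, and FTH1 stood at percentile 0.953 in IMP1-/- labelled cells and 10.2 in wild-type cells.

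FTL, the light chain that supports mineral formation in the shell, had fewer footprints in the IMP1-/- labelled library, with an RNA difference of less than 1.5-fold. It lies on chromosome 19, 48965301 to 48966878, plus strand (ENST00000331825). It had 4483 reads in IMP1-/- labelled RNA against 6425 in wild-type RNA, an RNA change of −0.37 (−0.42 to −0.31). Its footprints numbered 197 in the IMP1-/- labelled library against 623 in the wild-type library, an RPF change of −1.66 (−1.90 to −1.43), or 3.16-fold lower. The TE change was −1.29 (−1.53 to −1.05), or 2.45-fold lower, at percentile 3.26 of all genes. Its footprint level over RNA level was 0.0578 (0.0498 to 0.0666) in IMP1-/- labelled cells and 0.142 (0.130 to 0.154) in wild-type cells, which were percentiles 0.276 and 1.15. TE was thus lower for both ferritin mRNAs in the IMP1-/- labelled cells, for FTH1 with more RNA at a footprint count within 1.5-fold and for FTL with fewer footprints at an RNA count within 1.5-fold.

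**Figure D1:**
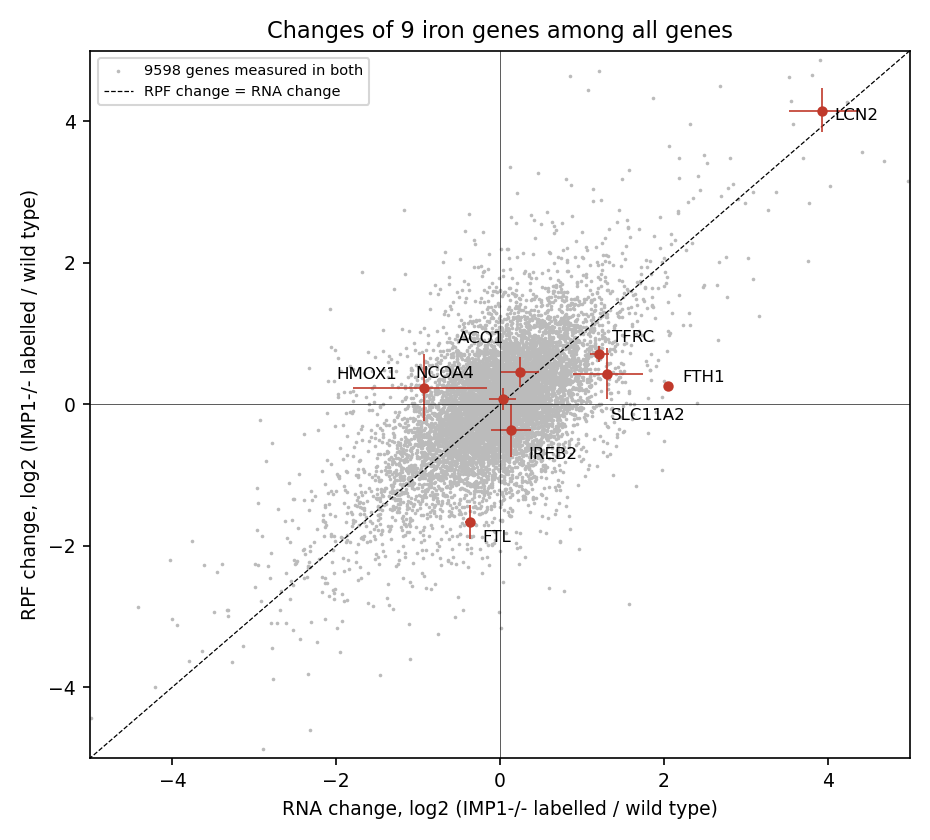
RNA change (x axis) against RPF change (y axis) between IMP1-/- labelled and wild-type libraries, both log2, for 9598 genes (grey) and 9 iron genes (red, with 95% counting intervals). FTH1 and FTL lie below the dashed line of equal change, with TE changes of −1.78 and −1.29, and LCN2 lies beside it at the upper right.

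The heavy chain outnumbered the light chain by more in the IMP1-/- labelled cells, in both kinds of library. FTH1 had 12.9 reads for each FTL read (12.6 to 13.3) in IMP1-/- labelled RNA and 2.43 (2.36 to 2.50) in wild-type RNA. In footprints the ratio was 25.9 in the IMP1-/- labelled library, with a lower bound of 22.5, and 6.83 (6.27 to 7.44) in the wild-type library. The coding parts are of similar length, 549 bases in FTH1 and 525 in FTL. The heavy to light ratio was thus 5.33 times as high in RNA and 3.80 times as high in footprints in the IMP1-/- labelled libraries. The TE change of FTH1 minus that of FTL was −0.49 on the log2 scale (−0.74 to −0.25).

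**Figure D2:**
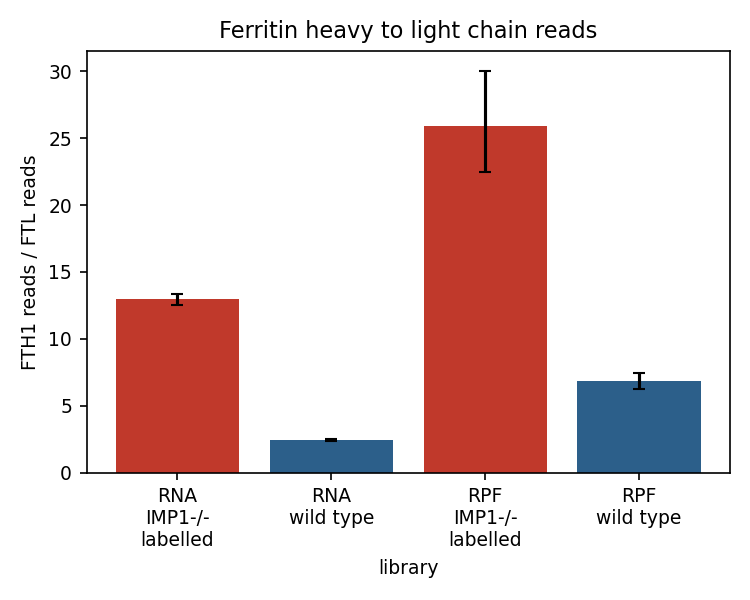
FTH1 reads divided by FTL reads (y axis, linear from 0) in the 4 libraries, with exact 95% counting intervals. The IMP1-/- labelled libraries stand at 12.9 in RNA and 25.9 in RPF, above the wild-type libraries of the same kind at 2.43 and 6.83.

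Ferritin genes have many processed copies in the genome, and 25 FTH1 and 16 FTL pseudogenes are annotated by name, none of which is among the counted genes. How reads that match several places were counted is not given in the sources used here, so the absolute FTH1 and FTL counts are uncertain. FTMT, the intronless gene of mitochondrial ferritin and a close relative of FTH1, had 240 reads in IMP1-/- labelled RNA against 51 in wild-type RNA, and 23 reads in IMP1-/- labelled RPF against 5 in wild-type RPF. Set against FTH1 that was 4.13 (3.63 to 4.69) FTMT reads per 1000 FTH1 reads in IMP1-/- labelled RNA and 3.27 (2.43 to 4.30) in wild-type RNA, with overlapping intervals. In RPF it was 4.51 (2.85 to 6.77) per 1000 in the IMP1-/- labelled library and 1.18 (0.382 to 2.75) in the wild-type library, with intervals that do not overlap. Whether FTMT reads came from FTH1 mRNA was not tested. BEST1, which overlaps FTH1 on the opposite strand, had 43 reads in IMP1-/- labelled RNA against 7 in wild-type RNA, and 79 reads in IMP1-/- labelled RPF against 3 in wild-type RPF. The counting of strand is not stated, and all BEST1 reads together are few beside those of FTH1.

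NCOA4, the autophagy receptor that carries ferritin to the lysosome, was almost equal between the libraries. It had 550 reads in IMP1-/- labelled RNA against 598 in wild-type RNA, and 678 reads in IMP1-/- labelled RPF against 645 in wild-type RPF. The RNA change of 0.03 (−0.14 to 0.20), the RPF change of 0.07 (−0.09 to 0.23) and the TE change of 0.04 (−0.19 to 0.27) all had intervals that include 0.

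TFRC, the receptor that takes up transferrin-bound iron, was higher in RNA and in footprints of the IMP1-/- labelled cells. It lies on chromosome 3, 196049284 to 196082189, minus strand (ENST00000360110). TFRC had 1866 reads in IMP1-/- labelled RNA against 894 in wild-type RNA, an RNA change of 1.21 (1.10 to 1.33), or 2.32-fold higher. It had 1644 reads in IMP1-/- labelled RPF against 1006 in wild-type RPF, an RPF change of 0.71 (0.59 to 0.82), or 1.63-fold higher. Its footprints over RNA were 1.16 (1.08 to 1.24) in IMP1-/- labelled cells and 1.64 in wild-type cells, at percentiles 52.7 and 74.5 of all genes. The TE change of −0.50 (−0.67 to −0.34) is 1.42-fold lower, short of the 1.5-fold used to call a gene, at percentile 18.8 of all genes.

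SLC11A2 encodes DMT1, the transporter that carries ferrous iron across the apical or endosomal membrane. The counted transcript is ENST00000541174 on chromosome 12, 50987946 to 51026141, minus strand, a form that holds the 3′ site shown above. It had 152 reads in IMP1-/- labelled RNA against 68 in wild-type RNA, an RNA change of 1.31 (0.89 to 1.75), or 2.47-fold higher. Its footprints were 154 in the IMP1-/- labelled library against 114 in the wild-type library, an RPF change of 0.43 (0.07 to 0.80), which is below 1.5-fold. The TE change was −0.87 (−1.41 to −0.34), or 1.83-fold lower. Its difference in TE change from TFRC was −0.37 (−0.93 to 0.19), with an interval that includes 0. Both uptake genes had an RNA change above 1 and a smaller RPF change in the same direction.

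SLC40A1, the only known cellular iron exporter, was near the limit of detection. It had 6 reads in IMP1-/- labelled RNA against 17 in wild-type RNA, and 0 reads in IMP1-/- labelled RPF against 11 in wild-type RPF. The RNA ratio of 0.412 had an interval from 0.127 to 1.04 and includes no change. Against a floor of 3 counts in the IMP1-/- labelled library its footprints were at least 3.67-fold lower, which leaves out the counting error of the 11 wild-type reads. The gene did not reach 50 reads in either kind of library, so it enters no count of called genes.

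**Figure D3:**
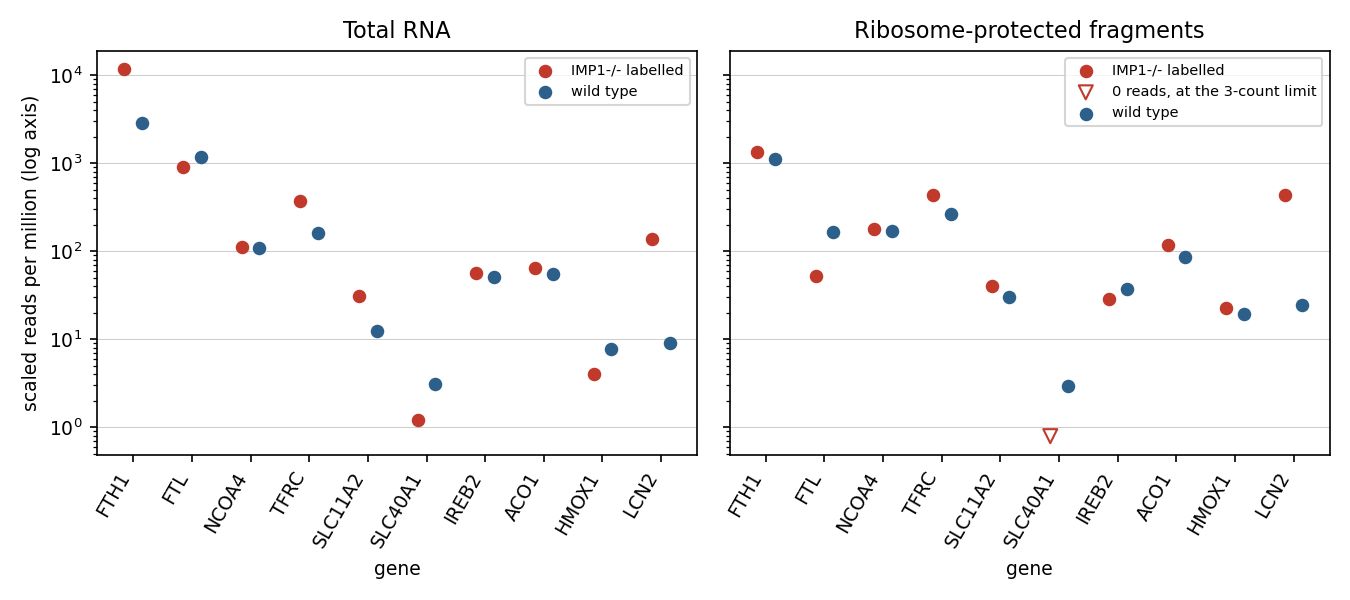
Scaled CPM (reads counted per gene, corrected for depth; y axis, log) of the 10 genes in total RNA (left) and RPF (right), 1 point per library, IMP1-/- labelled in red and wild type in blue, with the open triangle at the 3-count limit for 0 reads. FTH1, TFRC, SLC11A2 and LCN2 are higher in IMP1-/- labelled RNA, and in RPF the widest gaps are LCN2 (higher) and FTL (lower) among genes with at least 50 reads.

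Setting mRNAs with a 5′ IRE against TFRC, the TE change of FTH1 minus that of TFRC was −1.28 on the log2 scale (−1.45 to −1.10), or 2.43-fold lower. For FTL the difference from TFRC was −0.79 (−1.07 to −0.50), or 1.72-fold lower. Gene length and library scaling drop out of these differences, and both intervals exclude 0, though they cover counting error alone. For SLC40A1 the difference was −2.74 with an interval from −7.03 to 1.55, which at 0 to 17 reads per library does not resolve a direction. The TE changes of FTH1, FTL and TFRC were all below 0, so these 3 differed in size and not in sign. In RNA the 5′ IRE mRNAs differed in sign, at 2.05 for FTH1 and −0.37 for FTL, against 1.21 for TFRC.

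**Figure D4:**
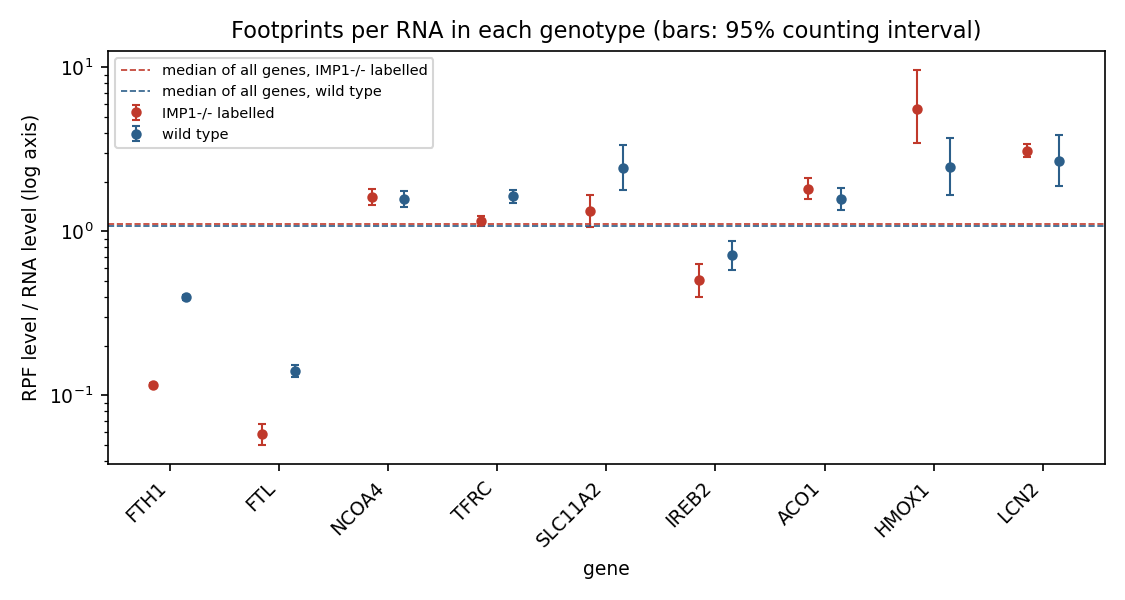
Footprint level over RNA level (y axis, log) of the 9 genes with at least 50 reads, IMP1-/- labelled in red and wild type in blue, with exact 95% counting intervals and the median of all genes dashed. FTH1 and FTL lie lowest in both genotypes, at 0.115 and 0.0578 in IMP1-/- labelled cells and at 0.397 and 0.142 in wild-type cells.

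Of 4 other measured mRNAs known to carry an IRE, EPAS1 was lower in RNA and RPF, and CDC14A was lower in RPF and TE. EPAS1, the hypoxia factor HIF-2alpha whose mRNA is regulated through a 5′ IRE, had 556 reads in IMP1-/- labelled RNA against 2551 in wild-type RNA, and 418 reads in IMP1-/- labelled RPF against 1972 in wild-type RPF. Its RNA change was −2.05 (−2.18 to −1.91) and its RPF change −2.24 (−2.39 to −2.09). Its TE change was −0.19 (−0.39 to 0.01). CDC42BPA, a kinase gene with a 3′ IRE, had an RNA change of −0.23, and its TE interval ran from −0.67 to 0.01. CDC14A, a phosphatase gene with a 3′ IRE in 1 of its forms, had a TE change of −1.32 (−2.38 to −0.26), on 34 reads in IMP1-/- labelled RNA against 29 in wild-type RNA, and 19 reads in IMP1-/- labelled RPF against 37 in wild-type RPF. ALAS2, the erythroid enzyme of heme synthesis, had 0 reads in all 4 libraries.

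The 2 genes of the iron regulatory proteins were within 1.5-fold in RNA and RPF. ACO1, which encodes IRP1, had 320 reads in IMP1-/- labelled RNA against 300 in wild-type RNA, an RNA change of 0.24 (0.01 to 0.48). It had 443 reads in IMP1-/- labelled RPF against 324 in wild-type RPF, an RPF change of 0.45 (0.24 to 0.66), or 1.37-fold higher. IREB2, which encodes IRP2, had 281 reads in IMP1-/- labelled RNA against 284 in wild-type RNA, and 108 reads in IMP1-/- labelled RPF against 139 in wild-type RPF. The IREB2 RNA change was 0.14 (−0.11 to 0.38), its RPF change −0.36 (−0.74 to 0.01) and its TE change −0.50 (−0.93 to −0.07). FBXL5, the ubiquitin ligase subunit that degrades IRP2 when iron is plentiful, had an RNA change of 0.71 (0.40 to 1.02) and an RPF change of 0.09 (−0.38 to 0.56).

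HMOX1, heme oxygenase 1, which frees iron from heme, had 20 reads in IMP1-/- labelled RNA against 43 in wild-type RNA, an RNA change of −0.93 (−1.80 to −0.16). Its footprints were 86 in the IMP1-/- labelled library against 73 in the wild-type library, an RPF change of 0.23 (−0.23 to 0.71). The TE change was 1.17 (0.29 to 2.05) and rests on 63 RNA reads in all. Its footprints over RNA were 5.54 (3.44 to 9.70) in IMP1-/- labelled cells and 2.47 (1.68 to 3.70) in wild-type cells, with overlapping intervals.

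LCN2, the secreted lipocalin that binds iron-loaded siderophores, was higher in both measurements by a similar factor. It had 691 reads in IMP1-/- labelled RNA against 50 in wild-type RNA, and 1633 reads in IMP1-/- labelled RPF against 92 in wild-type RPF. The RNA change was 3.93 (3.52 to 4.38) and the RPF change 4.14 (3.85 to 4.47). Its TE change of 0.22 (−0.30 to 0.73) had an interval that includes 0. LCN2 was at percentile 99.9 of all genes in RNA change and 99.8 in RPF change, the highest of the 10 genes in both.

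Of the 9 genes measured in RNA, 4 were called higher (FTH1, TFRC, SLC11A2 and LCN2) and 1 lower (HMOX1), where a call needed at least 1.5-fold and an interval that excludes no change. Over all 10875 genes measured in RNA, 16.2% were called higher and 17.8% lower, 34.0% in all. In footprints TFRC and LCN2 were called higher and FTL lower of 9 genes, against 19.0% higher and 20.1% lower, 39.1% in all, over 9794 genes. In TE, HMOX1 was called higher and FTH1, FTL and SLC11A2 lower of 9 genes, against 15.7% higher and 13.9% lower, 29.6% in all, over 9598 genes. The median change of the 9 genes was 0.24 in RNA, 0.26 in RPF and −0.50 in TE, where all genes had medians of −0.01, −0.0007 and 0.03. The genes were chosen with earlier results known, so these shares describe them and nothing more.

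Per length of coding sequence, FTH1 was the highest of the 10 genes in all 4 libraries and SLC40A1 the lowest. In RNA, FTH1 stood at 21292 RPKM (reads per kilobase of coding sequence, scaled for depth) in the IMP1-/- labelled library and 5158 in the wild-type library, and FTL followed at 1720 in the IMP1-/- labelled library and 2219 in the wild-type library. In footprints FTL stood at 99.2 RPKM in the IMP1-/- labelled library, below FTH1, LCN2 and TFRC, and in the wild-type library it came next after FTH1. FTL and NCOA4 (97.3 RPKM) did not differ beyond counting error in the IMP1-/- labelled footprints. In RNA, IREB2 and SLC11A2 could not be ordered in the IMP1-/- labelled library, nor ACO1 and IREB2, IREB2 and LCN2, or HMOX1 and SLC11A2 in the wild-type library. HMOX1 and SLC11A2 could not be ordered in the footprints of either genotype. Which part of each transcript was counted is not stated, and the order of ACO1, IREB2, SLC11A2, HMOX1 and LCN2 changed in at least 1 library when the whole transcript length was used.

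Among the 2687 genes that had 500 reads or more per kind of library, both genotypes summed, none had a pair of RNA and RPF changes close to that of FTH1. The nearest were UBN2, PJA2, DRAP1, CCNH and TCEA1, at log2 distances from 0.848 to 0.918. Around TFRC the genes were dense, and LRRC8A, PXN, CLDN12, ITGB1 and TAOK1 lay at distances from 0.0270 to 0.144. This likeness is over 2 values per gene from 4 libraries.

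In the lists of other iron genes, the counts called are to be read against the shares over all genes, which were 16.2% higher and 17.8% lower in RNA, 19.0% higher and 20.1% lower in RPF, and 15.7% higher and 13.9% lower in TE. With so few members, none of these lists is read as differing from that background. Of 12 iron transport genes measured in RNA, 3 were higher and 4 lower, and of 9 in footprints 1 was higher and 4 lower. The metalloreductase gene STEAP2 was higher, with 519 reads in IMP1-/- labelled RNA against 272 in wild-type RNA and changes of 1.08 in RNA and 0.74 in RPF. LTF, encoding the iron-binding protein lactoferrin, had 50 reads in IMP1-/- labelled RNA against 3 in wild-type RNA. The mitochondrial iron importer mitoferrin-1, SLC25A37, had 84 reads in IMP1-/- labelled RNA against 169 in wild-type RNA, and an RPF change of −1.59 (−2.30 to −0.95). The divalent metal transporter SLC39A8 had an RPF change of −1.45 (−2.05 to −0.91), and CYBRD1, a ferric reductase, an RNA change of −0.64 (−0.80 to −0.49). In TE 1 of 9 was lower (SLC39A8) and 0 higher, and the list medians were 0.06 in RNA, −0.09 in RPF and −0.29 in TE.

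Among heme genes the widest RNA difference was in SLC48A1, the heme transporter of endosomes and lysosomes. It had 295 reads in IMP1-/- labelled RNA against 1199 in wild-type RNA, with changes of −1.87 (−2.06 to −1.69) in RNA and −1.85 (−2.21 to −1.52) in RPF. HMOX2, the constitutive heme oxygenase, had equal RNA (−0.002, interval −0.25 to 0.25) and 753 footprints in the IMP1-/- labelled library against 329 in the wild-type library, a TE change of 1.19. BLVRB, a biliverdin reductase, and FECH, which inserts iron to form heme, had TE changes of 0.87 for BLVRB (0.58 to 1.17) and 1.44 for FECH (0.76 to 2.13). BLVRA, the other biliverdin reductase, had a TE change of −0.16 (−0.40 to 0.07) and an RPF change of −0.31 (−0.45 to −0.17). ALAS1, the housekeeping first enzyme of heme synthesis, had an RNA change of 0.90 (0.68 to 1.11). In all, 1 of 15 heme genes was higher and 3 lower in RNA, 3 of 13 higher and 1 lower in RPF, and 3 of 13 higher and 1 lower in TE, where 34.0%, 39.1% and 29.6% of all genes were called in either direction. The medians were −0.002, 0.22 and 0.08.

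Of the iron-sulfur cluster genes, 2 of 28 were higher and 3 lower in RNA, 4 of 27 higher and 2 lower in RPF, and 5 of 27 higher and 2 lower in TE, against the same shares of all genes. The list medians were 0.02, 0.32 and 0.29. The assembly factor ISCA1 was called higher in all 3, at 0.75 in RNA, 1.40 in RPF and 0.65 in TE. FDX1, a mitochondrial ferredoxin, had 275 footprints in the IMP1-/- labelled library against 507 in the wild-type library, with an RNA change of −0.06 and a lower TE, at −0.82 (−1.09 to −0.55).

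Among regulators of iron and of the antioxidant response 2 of 11 were higher and 1 lower in RNA, 0 of 9 were called in RPF, and 1 of 9 was higher and 2 lower in TE, with medians of −0.34, −0.22 and 0.002. PCBP2, a poly(C)-binding protein that also acts as an iron chaperone, had an RNA change of −0.36 and a higher TE, at 0.60 (0.51 to 0.70). NRF2 target and lipid peroxidation genes had 1 of 19 higher and 3 lower in RNA, 1 higher and 4 lower in RPF, and 1 higher and 0 lower in TE, with medians of 0.05, −0.04 and −0.004. GPX4, which reduces lipid peroxides, had 607 reads in IMP1-/- labelled RNA against 1419 in wild-type RNA, and NQO1, an NRF2 target as FTH1, FTL and HMOX1 also are, had an RPF change of −1.03 (−1.12 to −0.94). Spermidine acetyltransferase SAT1 was the member higher in RNA and RPF, at 0.91 and 1.17.

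Autophagy and lysosome genes that act in ferritin turnover had 3 of 18 higher and 1 lower in RNA, 3 of 18 higher and 2 lower in RPF, and 2 of 17 higher and 2 lower in TE, with medians of 0.20, 0.14 and 0.14. TAX1BP1, an autophagy receptor that binds NCOA4, had 1245 reads in IMP1-/- labelled RNA against 881 in wild-type RNA, with changes of 0.65 (0.52 to 0.78) in RNA and 0.67 (0.54 to 0.80) in RPF. The other IRE mRNAs had 0 of 4 higher and 1 lower in RNA, 0 higher and 2 lower in RPF, and 0 higher and 1 lower in TE, with medians of 0.04, −0.75 and −0.26.

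**Figure D5:**
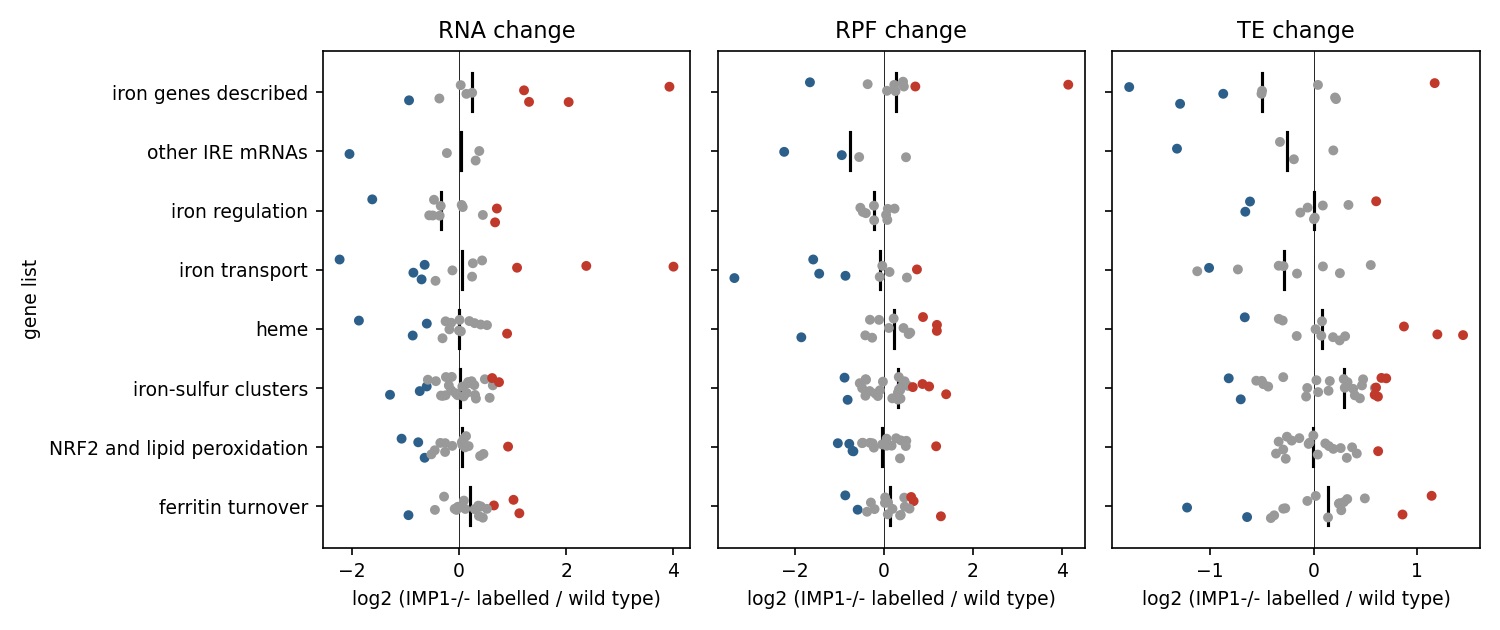
Change between IMP1-/- labelled and wild-type libraries (x axis, log2) of genes with at least 50 reads in 8 lists (y axis), for RNA, RPF and TE, with genes called higher in red, called lower in blue and not called in grey, and the list median as a black line. The TE medians are −0.50 for the 9 iron genes described and lie between −0.29 and 0.29 for the other lists.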

How the data were processed

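Total RNA and ribosome footprints were sequenced from SW480 cells. The size range was 18 to 34 nt for footprints and 18 to 50 nt for RNA pieces, random identifiers had 4 and 5 nt, and amplification took 15 PCR cycles, per the labels' protocols. Tools named in the submitters' processing notes are HISAT2 2.1.0, Bowtie 1.1.2 and cutadapt 1.10, with build GRCh38. The sources used here do not give the annotation, counted region, multi-mapping rule, strand or identifier collapsing. The authors deposited raw counts of reads for each gene, 1 transcript per symbol, and 19176 of 19192 transcripts (99.9%) were found in GENCODE release 29, which gave coordinates, lengths and sequences.

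Libraries of a kind were scaled by TMM in edgeR 4.0.16 (R 4.3.3), with an IMP1-/- labelled to wild-type ratio of 0.900 for RNA and 1.00 for RPF. Changes used a prior count of 0.5, exact Clopper-Pearson 95% intervals for RNA, RPF and within-library ratios, and intervals from the sum of reciprocal counts for TE changes. A count of 0 allows up to 3 counts, which is 0.604 and 0.544 CPM in IMP1-/- labelled and wild-type RNA and 0.793 and 0.794 in RPF. PCR reads are not molecules, so intervals and floors cover counting error only. TE change has 0 residual degrees of freedom and no p-value is given. Calls and intervals were also run on simulated counts that carried counting error alone. Such counts hold no variation between clones, cultures or libraries, so they cannot show how the calls would fare with replicates. Software was pandas 2.3.3, SciPy 1.17.1, NumPy 2.4.6 and Python 3.11.15.

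The 10 genes and the lists were chosen with earlier results of these data known. Named are those 10 genes, other IRE mRNAs, up to 3 called genes per list, side and comparison (not all reported here), and the 5 genes nearest to FTH1 and to TFRC. BEST1 and FTMT were looked at for overlapping or related sequence, and PRPF18, ADAR, ENC1, ZBTB14 and ZER1 for the hairpin pattern, after values were seen, and BLVRA was named likewise. Alternatives were other scalings (DESeq2 1.42.0 size factors, library totals with and without MTRNR2L genes and PLCG2), read minimums of 20, 200 and none, a 2-fold threshold and a prior count of 2.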

Additional observations from a re-analysis of the deposited data

How the results depend on the processing

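Under the 3 other scalings the counts of called genes among the 10 were the same, and no change of a single gene moved by more than 0.0419 on the log2 scale. A prior count of 2 moved HMOX1 most, by 0.0573 in TE. Scaling cannot change the difference of FTH1 or FTL from TFRC in TE change, and a prior count of 2 left it at −1.28 for FTH1 and −0.78 for FTL. Of 108 alternative values of single changes 1 left its counting interval, the RNA change of FTH1, at 2.09 with library totals that leave out MTRNR2L genes and PLCG2, and 0 reversed. The calls of HMOX1 rest on few reads: with a minimum of 200 reads 0 genes were lower in RNA and 0 higher in TE. With a 2-fold threshold 0 genes were lower in RNA and 1 was higher in RPF, since TFRC footprints were 1.63-fold higher, and 2 (FTH1 and FTL) were lower in TE. With no minimum 2 genes were lower in RPF, SLC40A1 being added. The percentiles of footprint level over RNA level shifted with the read minimum. FTH1 in wild-type cells went from 10.2 to 12.6 with a minimum of 20 reads and to 5.26 with 200. FTH1 in IMP1-/- labelled cells went from 0.953 to 1.57 with 20 and to 0.376 with 200. TFRC in IMP1-/- labelled cells went from 52.7 to 44.5 with 200. In the other lists 27 of 168 alternative counts moved by more than 1.5 times, all of them under another read minimum. Depth limits SLC40A1 and HMOX1 most. No paired analysis was possible because each group has 1 library.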

Other observations

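The 19 transcripts with the hairpin pattern in the 5′ UTR were looked at as a group after the values of the ferritin genes were known. In TE 8 of them were measured, of which FTH1 and FTL were called lower and PRPF18, a splicing factor gene, higher, while ADAR, ENC1, ZBTB14 and ZER1 were among those not called. Without FTH1, FTL and SLC40A1, 0 of 6 were lower and 1 higher, with a median TE change of 0.01. Of the 89 transcripts with the pattern in the 3′ UTR, 64 were measured in TE, of which 11 were called higher and 16 called lower, against 15.7% higher and 13.9% lower over all genes, and the median TE change was −0.03. In RNA 12 of 73 were higher, TFRC among them, and 13 lower, against 16.2% higher and 17.8% lower over all genes. The pattern is a match of letters and pairs, and most of these transcripts are not known IRE mRNAs.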
